A study of Mus musculus with 10 samples.

Results

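The SOX, KLF and SP transcription factors were examined in luminal and basal cells of the mouse mammary gland. The members are all genes whose symbol is Sox, Klf or Sp followed by a number (Sp1 to Sp9 for the last), which gave 45 of the 24594 genes of the count table: 19 SOX, 17 KLF and 9 SP genes. Bulk RNA-seq covered 10 libraries from wild type C57BL/6J mice, 5 of luminal cells (the inner layer, which lines the ducts) and 5 of basal cells (the outer, contractile layer). All came from the virgin gland, without a treatment. The labels give no age, and the methods of the study state a single range of adult ages for its mice as a whole. The tissue was dissociated with enzymes, and the cells were sorted on the surface proteins EpCAM and CD49f after, as the study describes for its mammary cells, removal of cells bearing TER-119, CD31 or CD45. The comparison asks in which layer each factor is transcribed.

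SOX proteins bind DNA through an HMG box, which bends the minor groove, and usually act together with a partner factor. They are sorted into groups by the similarity of that box, and members of a group often stand in for each other. KLF and SP proteins share a set of zinc fingers at the C-terminus that reads GC-rich boxes and CACCC boxes, so that activators and repressors of the family compete for like sites. In epithelia, SOX9 and SOX10 are known for their place in progenitor states, KLF4 and KLF5 for barrier and keratin genes, and SP1 and SP3 for the promoters of widely used genes.

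Library totals ran from 13203146 to 17998165 counts. In all 10 libraries the title gives the other cell type than the cell type label, with which the source name and the letter in the description go together, so the grouping rests on the cell type label. The markers follow that label: 9 of 9 luminal markers (Krt8, Krt18, Krt19, Epcam, Prlr, Esr1, Pgr, Elf5, Kit) were higher in luminal libraries and 7 of 7 basal markers (Krt5, Krt14, Acta2, Myh11, Trp63, Mylk, Oxtr) in basal libraries. Levels are given as CPM, the usual depth-scaled counts, here on the TMM-scaled library total. A gene was called when its adjusted p in edgeR's quasi-likelihood test was under 0.05 with Benjamini-Hochberg adjustment over all 14609 genes tested. Log2 fold changes are luminal over basal, so that negative values mean a higher basal level, and are given with their standard error (SE). In bulk RNA, fewer cells that carry a transcript and less of it in each cell cannot be told apart.

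Of the 45 members, 32 passed the filter on low counts (13 SOX, 14 KLF and 5 SP genes) and 13 did not. Of the 32, 21 were called by layer, 6 higher in luminal cells (Klf5, Klf6, Sox6, Sox13, Sox14, Sp2) and 15 higher in basal cells (Klf2, Klf4, Klf7, Klf9, Klf13, Klf15, Sox4, Sox7, Sox8, Sox10, Sox12, Sox18, Sox21, Sp1, Sp3). The called share of 65.6% is close to the 64.8% over all genes tested. By direction, luminal cells had the higher level of 33.6% and basal cells of 31.2% of all genes tested, so that the luminal calls among the members were fewer than that share and the basal calls more. The median log2 fold change was −0.13 over the members tested and 0.046 over all genes tested, and the median size of the change was 0.97 against 0.81. Under stricter limits, 2-fold or more with an adjusted p below 1e-04, 2 members were higher in luminal cells (Klf5 and Sox14) and 4 in basal cells (Sox4, Sox8, Klf7, Klf15), where 12.4% and 13.5% of all genes tested passed the same limits. These counts rest on the setting: the luminal one was 0 with the replicate number as a block, 3 with DESeq2 and 1 without any single library other than luminal replicates 1 and 4, and the basal one was 7 without a filter and 10 with DESeq2. The 5 luminal and 5 basal values did not overlap for 17 of the 32 members, 6 with luminal and 11 with basal cells above, against 50.1% of all genes tested.

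**Figure D1:**
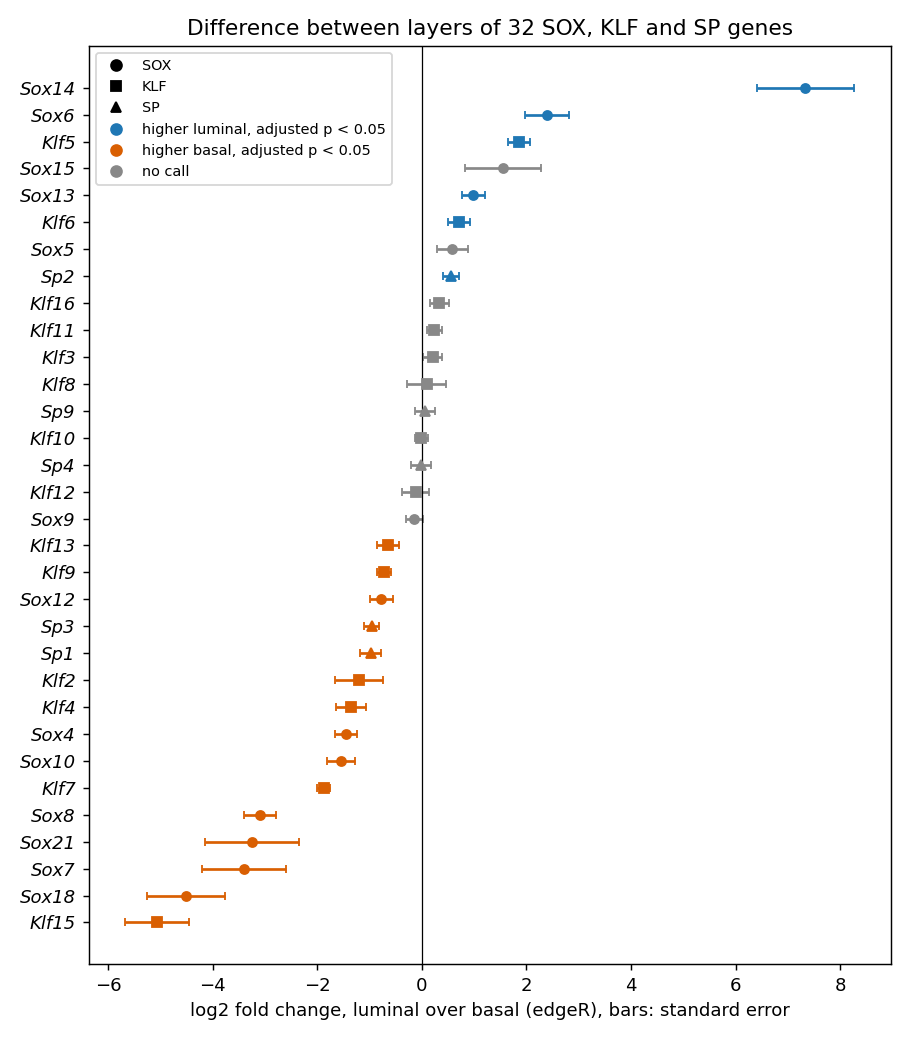
Log2 fold change of the 32 tested members, luminal over basal, with bars of 1 standard error; circles are SOX, squares KLF and triangles SP genes, blue higher luminal, orange higher basal and grey without a call. The points run from −5.07 for Klf15 to 7.34 for Sox14, whose basal libraries all hold 0 counts, so that its fitted value is no measured ratio.

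The filter lets a gene in through its higher layer alone. 8 of the 32 (Klf2, Klf15, Sox6, Sox7, Sox14, Sox15, Sox18 and Sox21) had libraries of the lower layer under its limit of 0.651 CPM, and their calls (2 luminal, 5 basal, 1 without) say little as a count. With at least 10 counts asked of every library, 24 members were left, of which 4 were called higher in luminal cells (Klf5, Klf6, Sox13, Sp2), where 34.5% of all genes kept by that filter were, and 10 higher in basal cells (Sox4, Sox8, Sox10, Sox12, Klf4, Klf7, Klf9, Klf13, Sp1, Sp3), where 30.6% were. The other 10 had no call.

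**Figure D2:**
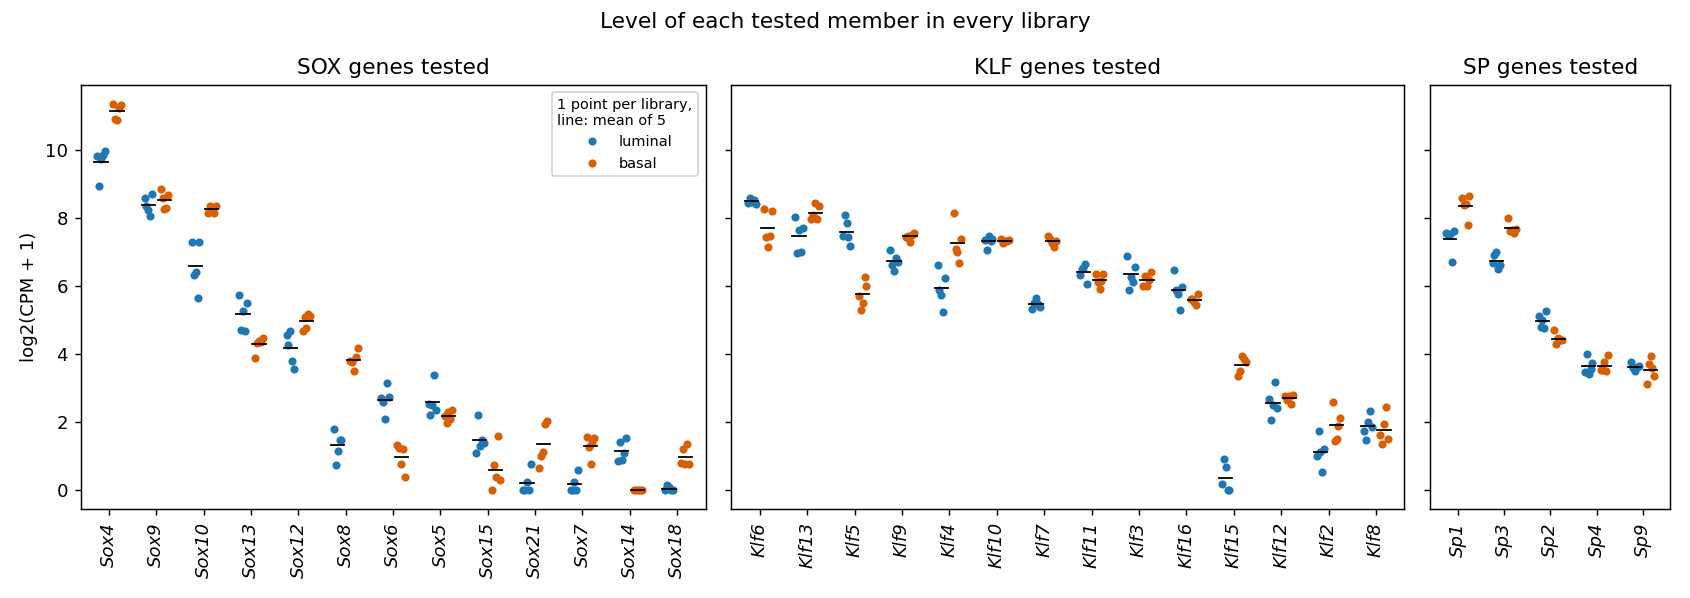
Level of each tested member in every library as log2(CPM + 1), with SOX, KLF and SP genes in 3 panels; each point is a library, blue luminal and orange basal, and the line is the mean of 5. Sox4 stands above all others in both layers, at 826 CPM in luminal and 2259.8 CPM in basal cells, and Sox14 lies at 0 in all basal libraries.

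The group C genes Sox4 and Sox12, which encode activators best known from progenitor cells and neurons, were both higher in basal cells. Sox4 (chr13:28948919-28953699, GRCm38.p6) had 893, 487, 838, 914 and 995 CPM in luminal replicates 1 to 5 and 2579.6, 1905, 1864, 2392 and 2559 CPM in basal replicates 1 to 5. The lowest basal library thus lay well above the highest luminal one. The log2 fold change came to −1.45 (SE 0.21, adjusted p = 2.48e-05), a 2.74-fold higher basal level. Sox12 (chr2:152393611-152398046) ran from 10.8 to 24.4 CPM in luminal and from 24.4 to 34.9 CPM in basal libraries, with the basal library above the luminal one in 5 of 5 same-numbered pairs. Its log2 fold change came to −0.77 (SE 0.22, adjusted p = 0.00686). With library totals in place of TMM factors Sox12 lost its call (log2 fold change −0.57, adjusted p = 0.0511). The group's other member, Sox11, was not tested, at 0 to 10 counts per library. In the GENCODE M21 annotation 54.6% of the exon bases of Sox4 also belong to Gm26735, a non-coding gene on the other strand, and the counting is not stated to use strand.

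The group E genes Sox8, Sox9 and Sox10 are known for neural crest, glia and cartilage. Sox8 and Sox10 were called higher in basal cells and Sox9 had no call. Sox10 (chr15:79154913-79164490), the factor of Schwann cells and melanocytes, had 154, 78.7, 83.9, 49.5 and 154 CPM in luminal libraries 1 to 5. In basal libraries it had 282, 326, 303, 282 and 322 CPM. Every basal value lay above every luminal one, and the luminal values were the more scattered, from 49.5 to 154 CPM against 282 to 326 CPM. The log2 fold change came to −1.54 (SE 0.26, adjusted p = 0.000133). Luminal replicates 1 and 5, which had the most Sox10, also had the most of 4 of the 9 luminal markers. These were Elf5, a factor of the milk-secreting branch, at 127 and 122 CPM where the remaining luminal libraries had 55.7 to 89.6 CPM, Kit, a receptor of luminal progenitors, at 288 and 208 CPM against 129 to 148 CPM, the progesterone receptor gene Pgr at 611 and 426 CPM against 86.0 to 253 CPM, and Epcam at 2161 and 2174 CPM against 1393 to 1708 CPM. Krt8, Krt18, Krt19, Prlr and Esr1 did not have replicates 1 and 5 together on top. Krt19 was highest in luminal replicate 4, at 4031 CPM against 2544 and 2497 CPM in replicates 1 and 5. Replicate 5 was highest for Krt8, Krt18 and Prlr, at 2716, 4572 and 1587 CPM, where replicate 1 had 2209, 3442 and 1166 CPM. Esr1 was highest in replicate 3, at 112 CPM against 101 and 108 CPM in replicates 1 and 5. A part of the cell make-up in the spread of Sox10 was not tested.

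Sox8 (chr17:25565893-25570686), close kin of Sox10, had 2.44, 0.685, 1.23, 1.76 and 1.78 CPM in luminal and 12.9, 12.6, 10.2, 14.2 and 17 CPM in basal libraries. It was low in both layers and 8.52-fold higher in basal cells (log2 fold change −3.09, SE 0.31, adjusted p = 7.76e-07), with no overlap. Of the exon bases of Sox8, 10.55% are shared with the antisense gene 2810468N07Rik. Sox9 (chr11:112782210-112787757), the chondrocyte and duct factor, was abundant in both, at 335 ± 60.9 CPM in luminal and 370.3 ± 65.0 CPM in basal cells (SD, n = 5 each). Its values overlapped, from 263 to 413 CPM in luminal and from 302 to 455 CPM in basal libraries, and the log2 fold change of −0.14 (SE 0.17, adjusted p = 0.474) had no call. That sign turned with library totals in place of TMM factors (0.051).

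Among genes known as SOX10 targets in glia and melanocytes, 9 of 14 were tested, of which 2 were higher in luminal cells, 4 in basal cells and 3 had no call (called among all genes tested: 33.6% luminal and 31.2% basal). Erbb3, a neuregulin receptor, had a log2 fold change of 5.44 (536 against 12.3 CPM, adjusted p = 3.72e-10) and Mbp, a myelin protein, one of 1.35 (288 against 113 CPM, adjusted p = 3.39e-07). The largest basal differences were in Ednrb, the endothelin receptor, at −3.96 (0.375 against 6.14 CPM, adjusted p = 4.62e-06) and Ret, a receptor kinase, at −2.63 (0.343 against 2.16 CPM, adjusted p = 0.00152). Thus Erbb3 and Mbp had their higher level in the layer with less Sox10. Of 9 Schwann cell and melanocyte markers 6 were tested, with 3 higher in luminal cells, 1 in basal cells and 2 without a call. Their summed level ran from 285 to 329 CPM in luminal and from 107 to 142 CPM in basal libraries, most of it Mbp, while of the melanocyte genes Dct, Mlana and Tyr were under the filter and Pmel had 8.26 CPM in luminal and 8.34 CPM in basal cells (adjusted p = 0.963). The part of such cells in the Sox10 level was not tested. Among genes known as SOX9 targets in cartilage and epithelia, 7 of 12 were tested, with 1 higher in luminal cells, 4 in basal cells and 2 without a call, to be read against the same 33.6% and 31.2%. Col11a2 had a log2 fold change of 1.64 (adjusted p = 0.00536), against −3.01 for Col27a1 (adjusted p = 8.04e-06) and −2.91 for Col9a3 (adjusted p = 1.7e-07), all 3 of them collagen genes.

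Group D, whose proteins lack an activation domain of their own and pair with one another, held 2 of the 6 luminal calls. Over all genes tested, 33.6% were called higher in luminal cells. Sox6 had all 5 luminal but only 4 basal libraries over the limit of the filter, so that the count says little. Sox13 (chr1:133382300-133424459) had 52.3, 25.1, 37.7, 24.7 and 44.5 CPM in luminal libraries and 13.7, 19.1, 19.8, 19.5 and 21.0 CPM in basal libraries. The groups did not overlap, and the log2 fold change came to 0.99 (SE 0.22, adjusted p = 0.0012). Sox6 (chr7:115470872-116040776) was much lower, at 5.57, 5.00, 3.25, 7.79 and 5.71 CPM against 1.5, 1.36, 0.696, 1.31 and 0.300 CPM, again without overlap. It was 5.24-fold higher in luminal cells (log2 fold change 2.39, SE 0.42, adjusted p = 0.000166). Sox5 (chr6:143828425-144782287) was above its same-numbered basal library in 5 of 5 pairs, but its values overlapped (3.58 to 9.39 CPM against 2.93 to 4.08 CPM) and it had no call (log2 fold change 0.59, SE 0.30, adjusted p = 0.0992). With library totals in place of TMM factors it gained one (0.76, adjusted p = 0.0341). Of the exon bases of Sox5, 9.25% are shared with the antisense gene Sox5os1.

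The group F genes Sox7, Sox17 and Sox18 are known from blood vessel endothelium and were seen mainly in basal libraries, at few counts. Sox7 (chr14:63943706-63950732) had 0, 0, 3, 0 and 8 counts in luminal and 31, 21, 9, 26 and 32 counts in basal libraries (log2 fold change −3.39, SE 0.80, adjusted p = 0.00199). Without luminal replicate 5 the value was −4.81 (adjusted p = 0.000261). Sox18 (chr2:181669837-181671640) had 0, 2, 1, 0 and 0 counts against 12, 19, 9, 25 and 12 counts. Over the summed counts, 3 against 77, the ratio of CPM was 27.0 with an exact 95% interval of 8.89 to 134, which covers counting error only, and the fitted change was called (adjusted p = 0.000105). Without luminal replicate 2, which holds 2 of the 3 luminal counts, the fitted log2 fold change went from −4.50 to −5.36. Sox17 (chr1:4490928-4497426) was not tested, with 0 counts in all luminal libraries and 10, 1, 2, 6 and 5 counts in basal libraries, so that its mean basal CPM was at least 1.60-fold higher than a floor of 3 counts per luminal library. All 3 had the higher basal level in 5 of 5 pairs, though for Sox17 replicates 2 and 3 differed by only 1 and 2 counts, under that floor. Of the exon bases of Sox17, 16.85% are shared with Gm37587, a gene on the other strand.

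Endothelial markers moved partly with these genes. Of 10 markers, 7 were tested: Cdh5, Cldn5 and Esam, which encode endothelial junction proteins, were higher in basal cells (log2 fold changes −4.37, −4.25 and −4.36), Egfl7 and Vwf were higher in luminal cells (1.20 and 5.19), and Pecam1 and Tek had no call. Cdh5 had 2.69 to 6.69 CPM in basal and 0.0527 to 0.491 CPM in luminal libraries. The summed level of the whole list ran from 72.2 to 118 CPM in luminal and from 14.4 to 24.2 CPM in basal libraries, of which Vwf alone made 81.6 CPM of the luminal mean. Kdr, Emcn and Tie1 were under the filter, and Pecam1, which encodes the CD31 of the depletion, had 1.47 to 3.93 CPM in luminal and 1.62 to 5.99 CPM in basal libraries. The part of endothelial cells in the group F counts was not tested.

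**Figure D3:**
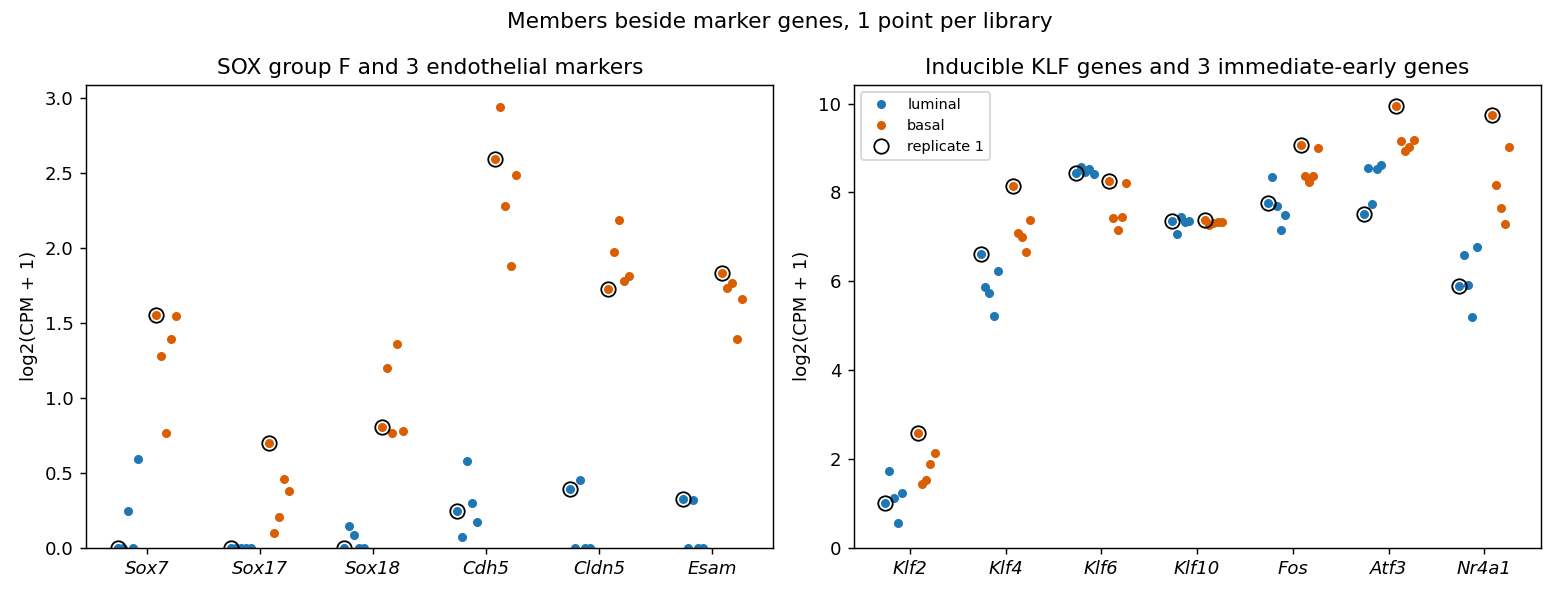
Left, log2(CPM + 1) of Sox7, Sox17 and Sox18 beside the endothelial markers Cdh5, Cldn5 and Esam, all called higher in basal cells. Not shown are the tested markers Vwf and Egfl7, called higher in luminal cells, and Pecam1 and Tek, without a call. Right, the inducible genes Klf2, Klf4, Klf6 and Klf10 beside Fos, Atf3 and Nr4a1, 3 of the 15 listed immediate-early and stress genes called higher in basal cells. Left out there are Hspa1a, Hspa1b and Socs3, called higher in luminal cells, and Jund, without a call. Each point is a library, blue luminal and orange basal, with replicate 1 ringed; basal replicate 1 is the highest library for Klf4 (281 CPM) and Atf3 (987 CPM), and Klf6 alone of the 4 KLF genes has its luminal points on top.

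The remaining SOX genes were scarce. Sox14 (chr9:99874106-99876170), a group B2 repressor known from neurons, had 13, 32, 14, 15 and 30 counts in luminal libraries and 0 counts in all 5 basal libraries. Its mean luminal level of 1.28 CPM was at least 6.46-fold higher than a floor of 3 counts per basal library, and the difference was called (adjusted p = 5.06e-05). With this gene at its bound the members' median stayed −0.13. Sox21 (chr14:118233233-118237030), of the same group, went the other way, with 0, 0, 3, 0 and 11 counts in luminal and 9, 15, 15, 45 and 52 counts in basal libraries. Its groups overlapped, its log2 fold change came to −3.25 (SE 0.90, adjusted p = 0.0056), and without luminal replicate 5 it was −5.00 (adjusted p = 0.000512). Of its exon bases 18.8% are shared with Gm4675, which had 0 counts in all luminal libraries and up to 15 in a basal one.

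Sox15 (chr11:69655037-69656727), group G, known from muscle and placenta, had 1.13, 3.58, 1.47, 1.76 and 1.59 CPM in luminal and 0, 0.682, 0.310, 2.0 and 0.240 CPM in basal libraries. The 1 high basal library, replicate 4, kept the groups overlapping, and the log2 fold change of 1.55 (SE 0.73, adjusted p = 0.0764) had no call. It was called without that library (2.61, adjusted p = 0.00556), with the replicate number as a block (2.13, adjusted p = 0.0271) and in limma voom (2.46, adjusted p = 0.0145). Sox15 shares 3.60% of its exon bases with Mpdu1, which was higher in luminal cells (42.3 against 17.2 CPM, log2 fold change 1.29). Sox30, group H, known from the testis, was not tested but had 11 to 36 counts in basal libraries and 0 or 1 in luminal ones. Over the summed counts, 105 against 3, its ratio of CPM was 36.8 with an exact 95% interval of 12.2 to 181. The group B1 genes of neural stem cells were all but absent from the counts: Sox1 and Sox3 had 0 counts in all 10 libraries, and Sox2 had 3 counts in 1 basal library.

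Partners of SOX proteins include POU factors and the TCF/LEF factors of Wnt signalling. Of 14 genes 10 were tested, with 1 higher in luminal cells (Tcf7l2, log2 fold change 0.38, adjusted p = 0.0472), 7 in basal cells and 2 without a call, where 33.6% and 31.2% of all genes tested were called in those directions. Tcf7 had 4.06 CPM in luminal and 34.6 CPM in basal cells (log2 fold change −3.09, adjusted p = 1.25e-08). Pou3f1, a POU factor that works with SOX10 in Schwann cells, had 0.302 and 2.73 CPM (−3.21, adjusted p = 0.00115).

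The KLF activators, which carry an activation domain before the zinc fingers, were called in 5 of 5 cases tested, 2 luminal and 3 basal, where 64.8% of all genes tested were called in either direction. One of the 5, Klf2, lost its call in 7 of 17 alternatives. Klf5 (chr14:99298691-99313412), a factor of proliferating epithelium, had 175, 269, 228, 171 and 143 CPM in luminal libraries 1 to 5. In basal libraries it had 51.3, 38.2, 44.6, 75.9 and 62.5 CPM. The lowest luminal library lay above the highest basal one, and Klf5 was 3.62-fold higher in luminal cells (log2 fold change 1.85, SE 0.21, adjusted p = 3.4e-06). Klf4 (chr4:55527137-55532475), a factor of growth arrest and of the skin barrier, was its opposite, with 96.3, 57.7, 51.9, 36.3 and 74.6 CPM in luminal and 281, 135, 127, 101 and 166 CPM in basal libraries. It too showed no overlap, though the highest luminal library, at 96.3 CPM, came near the lowest basal one, at 101 CPM. Its log2 fold change came to −1.35 (SE 0.29, adjusted p = 0.000888).

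Klf6 (chr13:5861489-5870393), an early-response gene of injured tissue, was even across luminal libraries, at 348, 379, 349, 366 and 340.3 CPM, and split in basal ones, at 306, 172, 141, 174 and 295 CPM. Basal replicates 1 and 5 stood near the luminal level and the other basal libraries at about the same lower one. Klf6 was higher in luminal cells (log2 fold change 0.71, SE 0.21, adjusted p = 0.00753), without overlap. Klf7 (chr1:64029448-64122345), known from neurons and fat cell precursors, had 39.1, 44.5, 49.1, 43.3 and 40.4 CPM in luminal and 174, 166, 154, 139 and 159.7 CPM in basal libraries. Both groups were tight, and of all members tested it had the lowest adjusted p (log2 fold change −1.87, SE 0.12, adjusted p = 1.05e-08). In the annotation 39.3% of its exon bases also belong to Gm26649, a non-coding gene on the other strand.

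Klf2 (chr8:72319062-72321654), the shear-stress factor of endothelium, was scarce, at 1.00, 2.32, 1.17, 0.458 and 1.33 CPM in luminal and 4.99, 1.71, 1.86, 2.69 and 3.36 CPM in basal libraries. The groups overlapped and the call was a narrow one (log2 fold change −1.20, SE 0.45, adjusted p = 0.0306). It was lost with the replicate number as a block (−1.25, adjusted p = 0.0609), with library totals in place of TMM factors (−0.99, adjusted p = 0.0698) and without any 1 of luminal replicates 1, 3 and 4 or basal replicates 1 and 5, where the adjusted p ran up to 0.101. Of 8 genes known as KLF2 targets in endothelium 5 were tested, with 1 higher in luminal cells (Cxcr4, log2 fold change 0.99), 3 in basal cells, among them Thbs1 (−2.87) and S1pr1 (−2.84), and 1 without a call (33.6% and 31.2% of all genes tested were called luminal and basal). The last of the activators, the erythroid factor Klf1, was not tested, at 0 to 26 counts per luminal and 1 to 9 per basal library.

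Barrier and keratin genes known as targets of KLF4 and KLF5 were also read. Of 14 genes 11 were tested, with 9 higher in luminal cells (33.6% of all genes tested were), 1 in basal cells (31.2% of all) and 1 without a call. The tight-junction gene Cldn7 had 291 CPM in luminal and 5.47 CPM in basal cells (log2 fold change 5.74, adjusted p = 3.18e-10), and the keratin gene Krt19 had a log2 fold change of 4.99 (adjusted p = 8.83e-09). The exception was Cdkn1a, the cell-cycle inhibitor known as a KLF4 target, at 141 and 301 CPM (−1.09, adjusted p = 0.00107), in the layer with more Klf4. Krt19 is also among the luminal markers.

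Klf2, Klf4, Klf6 and Klf10 are inducible within the time of a tissue dissociation, so the 19 immediate-early and stress genes listed with them are given here. Of these, 3 were higher in luminal cells, 15 in basal cells and 1 had no call, with 33.6% and 31.2% of all genes tested in those directions. Egr2 had the largest basal difference (log2 fold change −6.66, 1.53 against 154 CPM, adjusted p = 2.75e-11), followed by Myc (−2.82, adjusted p = 8.77e-09), and the heat-shock genes Hspa1a and Hspa1b had the largest luminal ones (1.20 and 1.17). Their summed level ran from 6394 to 8200.2 CPM in luminal and from 6952 to 13185 CPM in basal libraries. Basal replicate 1, with the most Klf4 at 281 CPM and the most Klf2 at 4.99 CPM, also had the most Fos (538 CPM), Atf3 (987 CPM) and Nr4a1 (861 CPM) of the basal libraries. It was the highest basal library for the listed genes other than Egr1, Myc, Ier2, Ier3 and Socs3. For Socs3 it was the lowest, at 203 CPM. Basal replicate 5, second for Klf4 and Klf6 among the basal libraries, was second for Fos (508 CPM) and Nr4a1 (519.9 CPM) too. Without basal replicate 1 Klf4 was still called (log2 fold change −1.07, adjusted p = 0.00205). The part of dissociation in these levels was not tested.

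Of the KLF genes whose products bind the corepressor SIN3, Klf9 and Klf13 were called, both higher in basal cells, and Klf10, Klf11 and Klf16 were not. The called share over all genes tested was 64.8% in either direction. Klf9 (chr19:23141226-23168129), a target of steroid and thyroid hormones, had 131, 96.1, 85.4, 112 and 104 CPM in luminal and 173, 177, 156, 179.6 and 186 CPM in basal libraries, without overlap (log2 fold change −0.72, SE 0.13, adjusted p = 0.000281). Klf13 (chr7:63886351-63938915), known from lymphocytes and heart, had 261, 125, 199, 126 and 205 CPM against 251, 267, 343, 247 and 324 CPM. Its luminal replicate 1 lay within the basal range, the log2 fold change came to −0.64 (SE 0.21, adjusted p = 0.0132), and the call was lost with library totals in place of TMM factors (−0.45, adjusted p = 0.0786).

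Klf10 (chr15:38291464-38300711), an early TGF-beta response gene, was nearly level, at 158 ± 15.4 CPM in luminal and 159 ± 5.00 CPM in basal cells (SD, n = 5 each). Its log2 fold change came to −0.01 (SE 0.12, adjusted p = 0.968), the sign of which turned with upper-quartile factors (0.12) and with library totals (0.19). Klf11 (84.5 against 71.4 CPM, log2 fold change 0.24, SE 0.14, adjusted p = 0.152) and Klf16 (59.6 against 47.3 CPM, 0.33, SE 0.18, adjusted p = 0.122) had no call either. Both gained one with upper-quartile factors (0.37 and 0.45) and with library totals (0.44 and 0.53), and Klf16 also without luminal replicate 4 (0.45, adjusted p = 0.0196). Those 2 scalings moved the median log2 fold change of all genes by 0.12 and 0.19, about as far as both values moved. Klf14 was not tested, at 0 to 22 counts per luminal and 1 to 31 per basal library.

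None of the KLF genes whose products bind the corepressor CtBP was called, where 64.8% of all genes tested were called in either direction. Klf3 (chr5:64803521-64832901) had 57.4 to 116 CPM in luminal and 62.5 to 83.4 CPM in basal libraries (log2 fold change 0.21, SE 0.18, adjusted p = 0.331). Klf8 had 1.79 to 3.97 CPM against 1.57 to 4.44 CPM (0.09, SE 0.37, adjusted p = 0.838), and Klf12 had 3.21 to 8.02 CPM against 4.81 to 5.87 CPM (−0.12, SE 0.26, adjusted p = 0.712). No difference was detected in the 3, whose values overlapped throughout.

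Klf15 (chr6:90461043-90491803), a metabolic factor induced by glucocorticoids in muscle, liver and fat, had the largest basal difference of the KLF genes. It had 2, 17, 10, 0 and 0 counts in luminal libraries 1 to 5 and 147, 151, 185, 214 and 208 counts in basal libraries 1 to 5, that is 0.327 ± 0.406 CPM against 11.9 ± 2.14 CPM (SD, n = 5 each). The basal libraries were close together and far above every luminal one. The log2 fold change came to −5.07 (SE 0.61, adjusted p = 5.08e-06), and without luminal replicate 2, which holds 17 of the luminal counts, it was −5.87 (adjusted p = 3.33e-06). Of 5 adipocyte markers only Fabp4 passed the filter, and it was higher in basal cells too (1.01 against 5.42 CPM, log2 fold change −2.41, adjusted p = 4.22e-05), with 50 to 125 counts per basal library. Adipoq had 0 counts in all 10 libraries. Their summed level was 0.611 to 2.26 CPM in luminal and 3.95 to 8.88 CPM in basal libraries, and the part of adipocytes in the Klf15 counts was not tested. Klf17, the remaining KLF gene, was not tested, with 1 count in 1 luminal and 1 basal library.

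Of the SP genes, Sp1 and Sp3, the widely expressed pair that reads GC boxes, were higher in basal cells, and Sp2, a relative that binds the GC box weakly, was higher in luminal cells. The stretches before their RefSeq start sites (GRCm38.p6) are shown because the 3 genes, called in opposite layers, belong to the family that reads these boxes. Capitals mark GC boxes (GGGCGG, on either strand) and CACCC boxes (CACCC or GGGTG). Sp1 is at chr15:102406184-102406315 on the plus strand (132 bases, cut short where an exon of a minor transcript begins), Sp3 at chr2:72980447-72980696 and Sp2 at chr11:96982960-96983209, both on the minus strand (250 bases each, the outermost of 2 and 3 start sites).
Sp1: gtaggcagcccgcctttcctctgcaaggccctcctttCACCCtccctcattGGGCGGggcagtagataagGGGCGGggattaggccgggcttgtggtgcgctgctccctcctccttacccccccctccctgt
Sp3: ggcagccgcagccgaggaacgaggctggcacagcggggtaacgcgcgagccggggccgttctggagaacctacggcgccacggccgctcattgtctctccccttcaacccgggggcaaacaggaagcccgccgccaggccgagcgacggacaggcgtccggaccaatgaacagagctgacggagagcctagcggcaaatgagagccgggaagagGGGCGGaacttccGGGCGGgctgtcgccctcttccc
Sp2: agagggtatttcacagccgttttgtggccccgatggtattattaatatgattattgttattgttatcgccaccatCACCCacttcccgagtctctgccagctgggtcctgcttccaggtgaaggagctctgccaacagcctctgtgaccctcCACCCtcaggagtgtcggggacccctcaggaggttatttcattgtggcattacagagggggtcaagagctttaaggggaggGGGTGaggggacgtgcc
The printed stretch of Sp1 holds 2 GC boxes and 1 CACCC box, that of Sp3 2 GC boxes and no CACCC box, and that of Sp2 no GC box and 3 CACCC boxes. Over the 250 bases before the start, Sp1 holds 4 GC boxes. The start sites of a gene differ as well: the other one of Sp3 has 5 GC boxes, and of the other two of Sp2 the first has 1 GC box and 1 CACCC box and the second has neither. The RefSeq table gave 44 promoters for 33 of the 45 members. A GC box was in 59.1% of them and in 32.7% of all 32851 promoters of the same length, a CACCC box in 56.8% against 52.0%, and the SOX core ACAAT or ATTGT in 29.5% against 27.7%. GC boxes were in 10 of the 13 promoters of members higher in basal cells and in 4 of the 12 of members higher in luminal cells, but 6 of those 12 belong to Sox6 and 3 to Sp2, so they are not separate genes. Members tested without a call had one in 6 of 9 promoters (66.7%) and members not tested in 6 of 10 (60.0%). A match of these letters describes the sequence only.

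Sp1 had 187, 179.5, 184, 102 and 195 CPM in luminal and 382, 329.8, 339.5, 219.9 and 396 CPM in basal libraries. Replicate 4 was the lowest library of both layers, and no luminal value reached the basal range. The log2 fold change came to −0.97 (SE 0.20, adjusted p = 0.000654). Sp3 had 101, 119, 127, 89.4 and 96.1 CPM in luminal and 256, 195, 197, 187 and 201 CPM in basal libraries. It differed by nearly as much as Sp1, again without overlap (log2 fold change −0.96, SE 0.14, adjusted p = 3.86e-05). Sp2 had 33.5, 26.5, 31.2, 26.0 and 37.2 CPM against 24.9, 18.8, 21.0, 20.1 and 20.3 CPM. The difference was small but the groups did not overlap (log2 fold change 0.56, SE 0.15, adjusted p = 0.00475). Sp2 shares 3.69% of its exon bases with D030028A08Rik on the other strand, which was more abundant and also higher in luminal cells (146 against 38.8 CPM, log2 fold change 1.91).

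Sp4 (11.6 against 11.7 CPM, log2 fold change −0.01, SE 0.19, adjusted p = 0.955) and Sp9 (11.3 against 10.9 CPM, 0.06, SE 0.20, adjusted p = 0.805) had no call. The sign of Sp4 turned with upper-quartile factors and with library totals. Sp9, a factor of developing limb and forebrain, shares 5.35% of its exon bases with Cir1, a widely expressed gene at 24.1 CPM in luminal and 22.4 CPM in basal cells. Its level was even, from 10.3 to 12.6 CPM in luminal and from 7.67 to 14.4 CPM in basal libraries. The other members of the SP5 to SP9 group were not tested: Sp5, a Wnt target, had 0 counts in all luminal libraries and 0 to 19 in basal ones, Sp6, a factor of teeth and skin, 0 to 14 and 0 to 6, Sp7, the bone factor, 0 to 2 in both, and Sp8 had 0 counts in all 10. In the annotation Sp6 shares 86.7% of its exon bases with Gm11532, and the counts of the 2 genes were equal in 9 of 10 libraries, so that their reads cannot be told apart.

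To compare levels between genes, CPM were divided by the length of each gene's exons in kb. That length joins all exons annotated for a gene, and the order of genes depends on it. By CPM alone Sp1 stood above Sp3, at 170 against 106 CPM in luminal and 333 against 207 CPM in basal cells. Klf13 was then the highest basal KLF gene, at 286 CPM against 162 CPM for Klf4. Summed over the family, SOX transcripts came to 221 to 375 CPM per kb in luminal libraries (median 292) and 577 to 758 CPM per kb in basal libraries (median 688). Sox4 made 56.4% of the luminal and 69.2% of the basal sum, Sox9 27.1% and 13%, and Sox10 10.9% and 14.8%. The other 16 SOX genes shared what was left. KLF transcripts came to a like sum in both layers, 258 to 313 CPM per kb (median 280.1) in luminal and 259 to 353 CPM per kb (median 266) in basal libraries, but with another make-up. Klf6 was the leading KLF gene in luminal cells at 29.0% of the sum, followed by Klf10 and Klf5 at 13.5% each. In basal cells Klf4 had the highest mean share at 17.6%, before Klf6 at 16.5%, while Klf5 was at 3.63% and Klf7 at 6.72% (1.90% in luminal cells). The order of Klf4 and Klf6 in basal cells is not clear of the spread, since their shares ran from 12.8% to 26.2% and from 12.3% to 20.6% over libraries.

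SP transcripts came to 42.2 to 60.9 CPM per kb in luminal libraries (median 58.4) and 74.4 to 109 CPM per kb in basal libraries (median 92.1). Sp3 and Sp1 lay next to each other in both layers, at 39.1% and 36.6% of the luminal and 45.4% and 43.1% of the basal sum. Sp2 came next, at 16.4% in luminal and 6.67% in basal cells. Shares of a sum move together, so a smaller share of Sp2 goes with the larger share of the pair.

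**Figure D4:**
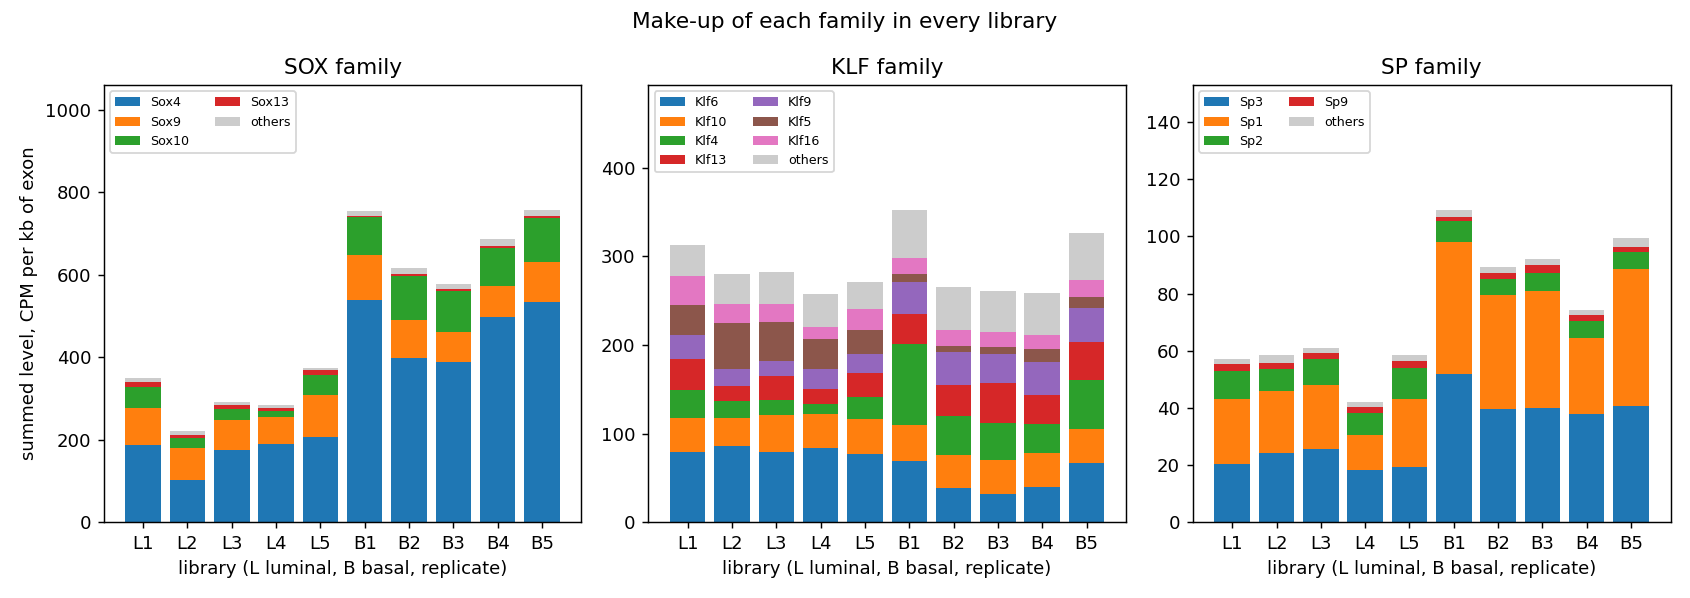
Summed level of each family in every library, in CPM per kb of exon, with the leading genes in colour and the others in grey; L1 to L5 are luminal and B1 to B5 basal libraries. The SOX and SP bars are taller in every basal library, while the KLF bars are of like height (258 to 353 CPM per kb) and differ most in the Klf6, Klf5 and Klf4 parts.

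Cofactors that KLF and SP proteins recruit were all detected. Of 18 genes 3 were higher in luminal cells, 10 in basal cells and 5 had no call, beside 33.6% and 31.2% of all genes tested. The SIN3-associated gene Sap25 (log2 fold change 2.34, 12.4 against 2.44 CPM, adjusted p = 1.16e-05) and the deacetylase gene Hdac1 (1.26, adjusted p = 4.57e-05) had the largest luminal differences. On the basal side they were the acetyltransferase genes Crebbp (−1.33, 72.9 against 183 CPM, adjusted p = 1.65e-05) and Kat2a (−0.88, adjusted p = 5.39e-05). Of the corepressor genes named for the 2 KLF groups, Ctbp1 (−0.50, adjusted p = 0.00228) and Sin3a (−0.70, adjusted p = 0.00107) were higher in basal cells, while Ctbp2 (0.18, adjusted p = 0.284) and Sin3b (0.28, adjusted p = 0.0714) had no call.

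Of 11 genes for the turnover and modification of KLF proteins 5 were higher in luminal cells, 4 in basal cells and 2 had no call, again beside 33.6% and 31.2% of all genes tested. Fbxo32, a muscle ubiquitin ligase component, had 43.9 CPM in luminal and 1097 CPM in basal cells (log2 fold change −4.64, adjusted p = 4.46e-08). Wwp1, the ubiquitin ligase known to act on KLF5, had 14.4 and 39.8 CPM (−1.47, adjusted p = 1.2e-06) and so was higher in the layer with less Klf5 transcript. The luminal side was led by the ligase gene Nedd4l (1.23, adjusted p = 0.000182).

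Markers of other cells were also read. Of 8 immune markers 4 were tested, 2 higher in each layer, and Ptprc, which encodes the CD45 of the depletion, was under the filter. Their summed level was 15.7 to 21.8 CPM in luminal and 26.4 to 53.0 CPM in basal libraries. Of 8 fibroblast markers 1 was higher in luminal cells (Dcn), 2 in basal cells (Pdgfra, Pdgfrb) and 5 had no call, at a summed 27.9 to 118 CPM and 38.9 to 57.5 CPM. Of 6 erythroid markers with counts listed, 3 were tested, with Hba-a1 higher in luminal and Epor in basal cells, at a summed 5.79 to 18.7 CPM and 2.17 to 4.14 CPM. Their part in the members' values was not tested.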

How the data were processed

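The authors deposited raw counts per gene as whole numbers, without normalization. Per the study's methods the libraries were poly(A)-selected, trimmed with cutadapt and aligned as single-end reads to mm10 with Bowtie2. The submitters' processing notes name cutadapt 4.2 and Bowtie2 2.3.5.1, where the methods give another Bowtie2 version. The counting tool, annotation and use of strand are not given in the sources used here. Bowtie2 does not join reads across splice junctions.

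Entrez identifiers were matched to symbols in a RefSeq table of GRCm38.p6 (24570 of 24594, all 45 members). Genes were filtered with filterByExpr (minimum count 10, minimum total 15) and tested with the quasi-likelihood test of edgeR 4.0.16 (R 4.3.3) on all 10 libraries, with TMM factors, cell type as the only term and Benjamini-Hochberg adjustment. The SE is the log2 fold change over the square root of F. Exon lengths and overlaps are from GENCODE M21, and promoters from RefSeq. A floor is 3 counts per library. Intervals and floors cover counting error only.

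Members and lists were chosen with earlier results of these data known. All members are accounted for. Of each list the 2 largest differences in each direction among those called are named, with genes whose values stand beside a member's; 1 list gene is not reported here.

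The study speaks of biological replicates in its RNA-seq, but of fewer per condition than the 5 here, so that separate animals are not stated for these libraries. If the libraries do not come from separate animals, p-values measure only the spread between these samples, which may be technical. The description of a luminal and a basal library of 1 number begins with the same figure, which differs between the 5 numbers and was read here as the animal. Their deviations correlated by 0.037 on average (−0.10 to 0.17, with 2 of 5 pairs over 0.1), against −0.0063 for other pairs.

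On simulated data with 200 of 14609 genes changed, edgeR recovered 77 of 103 changed 2-fold and 94 of 97 changed 4-fold, with 6 false calls. Far fewer genes changed there than the 64.8% called in these data, so those rates need not hold for them. Alternatives were DESeq2 1.42.0 size factors, upper-quartile factors, library totals, no filter, a filter of 10 counts or more in each library, the tests of DESeq2 and limma voom (3.58.1), the replicate number as a block, and leaving out each library.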

Additional observations from a re-analysis of the deposited data

Results flagged for a closer look

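In each group of 5 libraries the lowest and highest value of the 32 tested members were compared with the rest, over the 62 groups in which at least 1 library had more than 3 counts. In 6 of them 1 library stood apart by more than Dixon's critical value of 0.71 of the group's range, where chance alone gives about 3.1.

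Sp1 was low in luminal replicate 4, at 102 CPM against 179.5 to 195 CPM. Sp3 was high in basal replicate 1, at 256 CPM against 187 to 201 CPM. Sox13 was low in basal replicate 1, at 13.7 CPM against 19.1 to 21.0 CPM. Sox5 was high in luminal replicate 4, at 9.39 CPM against 3.58 to 4.82 CPM. Sox15 was high in luminal replicate 2, at 3.58 CPM against 1.13 to 1.76 CPM. Sox21 was high in luminal replicate 5, at 0.698 CPM (11 counts) against 0 to 0.184 CPM.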

How the results depend on the processing

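Of 560 values of single members under the alternatives, 521 kept direction and side of the threshold, 21 turned sign, 9 lost a call and 9 gained one. All that turned sign were without a call. With upper-quartile factors they were Klf10 (0.12), Klf12 (0.0086) and Sp4 (0.11), and using only library totals Klf10 (0.19), Klf12 (0.061), Sp4 (0.17) and Sox9 (0.051). With 10 or more counts asked of every library Klf10 turned (0.0033), and without a filter Sp9 (−0.0047). With 1 library left out the values ran from −0.061 to 0.068 for Klf10, from −0.34 to 0.029 for Klf12, from −0.11 to 0.087 for Sp4, from −0.055 to 0.19 for Sp9 and from −0.078 to 0.38 for Klf8. The members called ran from 4 to 9 on the luminal and from 10 to 18 on the basal side over the settings, and from 6 to 7 and 12 to 16 with a library left out. Past the stricter limits the basal members, 4 in the main analysis, were 7 without a filter (Sox10 and Sp3, tested in both, and Sox30, newly tested, were added) and 10 with DESeq2. The luminal ones, 2 in the main analysis, were 1 with at least 10 counts in every library, where Sox14 is not tested, 0 with the replicate block, 3 with library totals and with DESeq2, and 1 to 2 with a library left out. Where no construction shows it, the cause was not tested. The block ended the call of Klf2 and gave one to Sox15, and changed no other member's call. The labels do not state that the numbers mark animals. Depth limits the genes with few counts: without some basal libraries Sox7 and Sox18 fell below the filter, and the 13 members under it have no test in the main analysis.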
